A study of Mus musculus with 96 samples.

Results

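Onset neurons of the mouse lateral superior olive (LSO) that fired narrow action potentials (APs) were compared with Onset neurons that fired wide ones. The neurons were chosen by the AP halfwidth in their sample labels, which is the width of the spike at 50% of its peak amplitude. The 15 neurons at 0.32 ms or less formed the narrow class and the 12 neurons at 0.50 ms or more formed the wide class, together 27 of the 44 neurons labelled pLSO_Onset and of 96 libraries in all. The 14 Onset neurons between these limits are given beside them as the intermediate class. The remaining 3 Onset neurons (cell_36, cell_39 and cell_40) were left out, as the choice of neurons required. For these names a supplementary table of the study prints values other than the deposited ones.

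All neurons came from acute coronal brainstem slices of juvenile C57BL/6J mice of both sexes, taken around hearing onset, and no genotype or drug treatment is given for any of them. Each neuron was recorded with a patch pipette at near-physiological temperature, its cytoplasm was aspirated after the recording, and the RNA was sequenced as 1 library per neuron after a modified Smart-seq2 protocol. The values are TPM (transcript abundance scaled for gene length and sequencing depth), listed as whole numbers, and a gene was counted as detected at 1 TPM or more. The scale of the listed values changes along the rows of the table: the first 5000 of 38887 rows hold 94.3% of the summed TPM, and the median value above 0 is 176 TPM there and 2 TPM after row 25000. A limit of 1 TPM, an added 1 before the logarithm and a sum over genes therefore do not mean the same for every gene, and sums are set mainly by members in the first rows. The labels name no animals, so each class counts as 1 sample: no test was made between the classes, SDs describe the spread over neurons, and exact Clopper-Pearson 95% intervals of shares cover counting error only.

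Of the 27 libraries, 26 equalled the column of the same name in the supplementary table within 0.51 TPM for every gene at hand, as did 10 of the 14 intermediate libraries. The remaining library, the narrow neuron cell_35 at 0.29 ms, is printed there under the name cell_40, while the table prints a negative control under the name cell_35. The columns at hand ended at cell_42, so the intermediate neurons cell_43 and cell_44 could not be compared. The names of the intermediate neurons cell_31 and cell_33 are exchanged. Both were kept, as was cell_35, and results that turn on cell_35 are given with and without it. Negative controls, for which a pipette only touched the slice, appear 2 times under names of neurons in the columns at hand. Therefore 8 of the 10 controls were used. Title numbers 18 to 28 were held by 8 of the 12 wide and 2 of the 15 narrow neurons, a range chosen after the halfwidths had been seen. The labels do not say what these numbers stand for, and 4 wide and 13 narrow neurons lay outside the range.

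Principal neurons of the LSO (pLSOs) compare excitation driven by the ear on their own side with glycinergic inhibition driven by the ear on the other side. Onset neurons fire only few, short-latency spikes during a long depolarisation. The width of a spike is set largely by how fast sodium channels inactivate and how fast voltage-gated potassium (Kv) channels open to repolarise the membrane. Channels of the Kv3 family are known for fast repolarisation, those of the Kv1 family for limiting repetitive firing, and a large resting conductance gives auditory brainstem neurons a low input resistance and a short membrane time constant.

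Halfwidths were 0.21 to 0.32 ms in the narrow class (median 0.29 ms) and 0.50 to 0.76 ms in the wide class (median 0.635 ms), and this difference is fixed by the choice. Just inside the narrow limit stood 3 neurons at 0.32 ms, and just outside it 4 neurons at 0.35 ms. Just inside the wide limit stood 2 neurons at 0.50 ms, and just outside it 1 neuron at 0.48 ms. The halfwidth therefore formed a continuous series over the 41 Onset neurons rather than separate groups. The 11 Sustained pLSOs used had halfwidths of 0.21 to 0.87 ms with a median of 0.43 ms, and the 30 lateral olivocochlear (LOC) neurons of the same nucleus had 0.48 to 3.37 ms with a median of 1.12 ms. The spikes of the wide Onset neurons thus lay within the range of both other types.

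Spontaneous inhibitory postsynaptic currents (sIPSCs), the responses to inhibitory transmitter released without stimulation, were larger in neurons with narrow spikes. Their amplitude ranged from 25.3 to 49.9 pA with a median of 34 pA in 14 narrow neurons and from 13.1 to 36.6 pA with a median of 24 pA in 12 wide neurons. The means were 34.99 ± 8.05 pA (SD, n = 14) and 23.9 ± 6.63 pA (SD, n = 12), a difference of 11.1 pA or 1.50 times the pooled SD over neurons. The ranges overlapped, but the narrow neuron had the larger sIPSC in 86.6% of all pairs made of 1 narrow and 1 wide neuron. No narrow neuron was under 25 pA, where 6 of the 12 wide neurons were, and 11 narrow neurons against 2 wide neurons reached 28 pA. The intermediate neurons stood between the classes at 28.7 ± 6.07 pA (SD, n = 14).

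The difference in sIPSC amplitude kept its direction in each subset of neurons examined. It was 9.07 pA among neurons with title numbers outside 18 to 28, with 36.04 ± 8.13 pA (SD, n = 12) in narrow and 26.98 ± 3.84 pA (SD, n = 4) in wide neurons. Among neurons with input resistances of 25 to 75 MOhm it was 7.89 pA. Without cell_35 it was 11.8 pA. Over the 40 Onset neurons with a value, sIPSC amplitude and halfwidth had a Pearson r of -0.58 and a Spearman rho of -0.57, given as a description because neurons of the same animal are not known.

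The sIPSCs of narrow neurons also tended to be briefer, while excitatory currents differed less. The sIPSC decay time constant was 1.32 ± 0.263 ms (SD, n = 14) in narrow and 1.55 ± 0.257 ms (SD, n = 12) in wide neurons, with the wide neuron slower in 75% of pairs. Outside the title numbers 18 to 28 that difference shrank from 0.23 ms to a narrow minus wide value of -0.07 ms. Excitatory currents (sEPSCs) had amplitudes of 28.7 ± 7.94 pA (SD, n = 14) and 24.6 ± 6.30 pA (SD, n = 11), which is 0.552 times the pooled SD. Outside the title numbers 18 to 28 their order was the opposite, at 28.8 pA (n = 12) and 30.9 pA (n = 3). Their decay time constants of 0.736 ± 0.0821 ms and 0.760 ± 0.127 ms differed by 0.234 times the pooled SD.

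**Figure D1:**
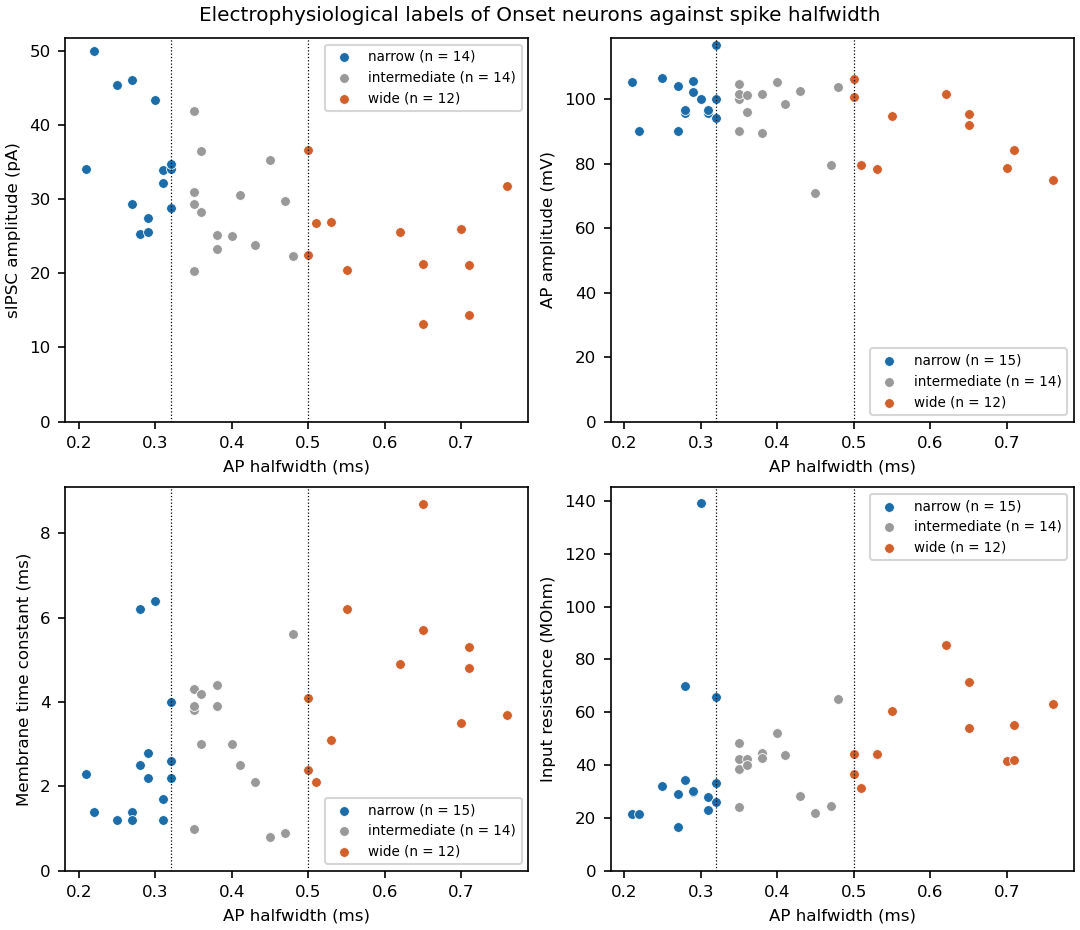
Labels of the 41 Onset neurons against AP halfwidth in ms, with 1 point per neuron: sIPSC amplitude (pA), AP amplitude (mV), membrane time constant (ms) and input resistance (MOhm). Dotted lines mark the limits of 0.32 and 0.50 ms. sIPSC amplitudes run from 25.3 to 49.9 pA in narrow and from 13.1 to 36.6 pA in wide neurons, and a single narrow neuron stands at 139.1 MOhm.

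Wide spikes were also smaller. AP amplitude ranged from 90.1 to 116.8 mV with a median of 100.1 mV in narrow neurons and from 75 to 106.3 mV with a median of 88.15 mV in wide neurons. All 15 narrow neurons and 6 of the 12 wide neurons reached 90 mV, so the classes overlapped only in their upper part. The means of 100 ± 7.03 mV and 89.3 ± 10.6 mV differed by 10.7 mV, or 1.23 times the pooled SD. Amplitude and halfwidth were read from the same spikes, and the peak sets the level at which the width is read, so the measures are not independent. AP threshold was -38.7 ± 3.26 mV in narrow and -37.5 ± 10.9 mV in wide neurons, and its extremes, -59.5 and -18.1 mV, were both wide neurons. Outside the title numbers 18 to 28 the narrow minus wide difference in threshold was -8.47 mV, in place of -1.18 mV.

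Most narrow neurons had a lower input resistance and a shorter membrane time constant, the marks of a leakier and faster membrane. Input resistance was 35 MOhm or less in 12 of 15 narrow, 4 of 14 intermediate and 1 of 12 wide neurons, with medians of 30, 42.45 and 49.15 MOhm. The 3 other narrow neurons were above 60 MOhm, the highest at 139.1 MOhm, so the means of 40.1 ± 31.3 and 52.4 ± 15.6 MOhm differed by less than the pooled SD of 25.6 MOhm. Membrane time constants were 2.62 ± 1.68 ms in narrow and 4.54 ± 1.83 ms in wide neurons, with the wide neuron slower in 80.3% of pairs.

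The differences in the means of these passive labels moved with the title numbers, unlike that in sIPSC amplitude. The 8 wide neurons numbered 18 to 28 had a mean time constant of 5.40 ± 1.58 ms, and the other 4 wide neurons had 2.83 ± 0.718 ms, close to the 2.74 ± 1.76 ms of the 13 narrow neurons outside that range. The difference in mean input resistance outside the range was 2.03 MOhm, lower in narrow neurons. The medians there stayed further apart, at 30 MOhm in narrow and 40.55 MOhm in wide neurons. The voltage sag on hyperpolarisation, a sign of HCN current, was 7.00 ± 3.67 mV in narrow and 9.91 ± 3.87 mV in wide neurons. Outside the range the order of the sag was the opposite, 7.35 ± 3.84 mV in narrow and 5.25 ± 1.37 mV in wide neurons. AP amplitude, in contrast, differed by 15.7 mV there. What the title numbers share was not tested and cannot be read from the labels.

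The remaining labels differed by less than the pooled SD over neurons. Rheobase, the smallest current that evoked a spike, was 523 ± 160 pA in narrow and 492 ± 165 pA in wide neurons, and the narrow neuron was higher in 51.9% of pairs. Resting potentials were -62.6 ± 4.63 mV and -67.4 ± 7.70 mV, and capacitances were 0.069 ± 0.020 nF and 0.088 ± 0.029 nF. Outside the title numbers 18 to 28 the resting potentials were -63.2 and -63.6 mV and the capacitances 0.0698 and 0.0658 nF, so the order of capacitance was the opposite there. The latency of the spike at rheobase had medians of 2.3 ms and 2.75 ms, and its means of 2.17 ± 0.769 ms and 3.88 ± 2.59 ms reflect 2 wide neurons at 8.7 and 9.5 ms.

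The libraries of both classes held similar numbers of genes. Narrow neurons had 1333 to 3724 genes detected (median 2654) and wide neurons 1931 to 3513 (median 2394), with means of 2589 ± 604 and 2589 ± 561, against 285 to 1271 in the 8 negative controls. The number of reads behind a value is unknown, because the files hold no counts, and levels are compared between neurons for the same gene only, not between genes. Of the 6 markers of principal LSO neurons, at least 3 were detected in every narrow neuron and at least 4 in every wide neuron, with sums of 85 to 1468 TPM and 73 to 1250 TPM. The 6 LOC markers summed to at most 54 TPM in any of the 27 neurons, and Ucn, Col4a3, Nxph1 and Isl1 were at 0 in all of them. In the 8 negative controls the principal markers summed to 0 to 526 TPM, and up to 4 of them were detected. These markers are genes that lead the study's own division of the same neurons into principal and LOC clusters. They therefore cannot test that division independently, and they do not bear on narrow against wide spikes.

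Transcripts of glia were present in both classes and higher in the narrow class. The 8 astrocyte markers summed to 15 to 6826 TPM (median 1097) in narrow and 0 to 6755 TPM (median 169.5) in wide neurons, and the 8 oligodendrocyte markers to 0 to 12835 TPM (median 555) and 0 to 5213 TPM (median 217). In the negative controls the medians were 623.5 and 6831 TPM. Gja1 was at 0 in both classes among the astrocyte markers, and so was Olig2 among the oligodendrocyte markers. Microglia markers had medians of 3 and 0.5 TPM, and none of the 8 endothelial and pericyte markers passed the filter on low values. Below, values without the 8 narrow and 4 wide neurons that held 2000 TPM or more of both glial lists together are given where they bear on a result, and the part of glial RNA in the differences was otherwise not tested.

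Across genes, differences past 2-fold were found in both directions. Of 4461 genes at 1 TPM or more in at least 20% of the 27 neurons, 621 (13.9%) had a mean log2(TPM + 1) higher by 1 or more in narrow neurons, called 2-fold here, and 726 (16.3%) were higher by as much in wide neurons. The median difference over all these genes, narrow minus wide, was -0.06. On this scale a gene that is often at 0 gives a difference made largely of how often it was detected, and the fold of low genes is understated. Fewer genes separated the neurons themselves: the narrow neuron was higher in 75% or more of the 180 pairs for 19 genes (0.426%) and in 25% or less for 50 genes (1.12%). These shares are the background against which the members of each gene list are read. Exons of Dync1h1, Stmn1, Cnp, Mprip, Mrpl51, Kcnab3, Kcnh7, Ina, Cacna1a, Cacnb2, Cacna2d2, Kcnd3, Maf, Glra1, Gria2, Gria4, Slc32a1 and Col4a3 overlap those of other annotated genes, whose reads cannot be told apart from theirs in these values.

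**Figure D2:**
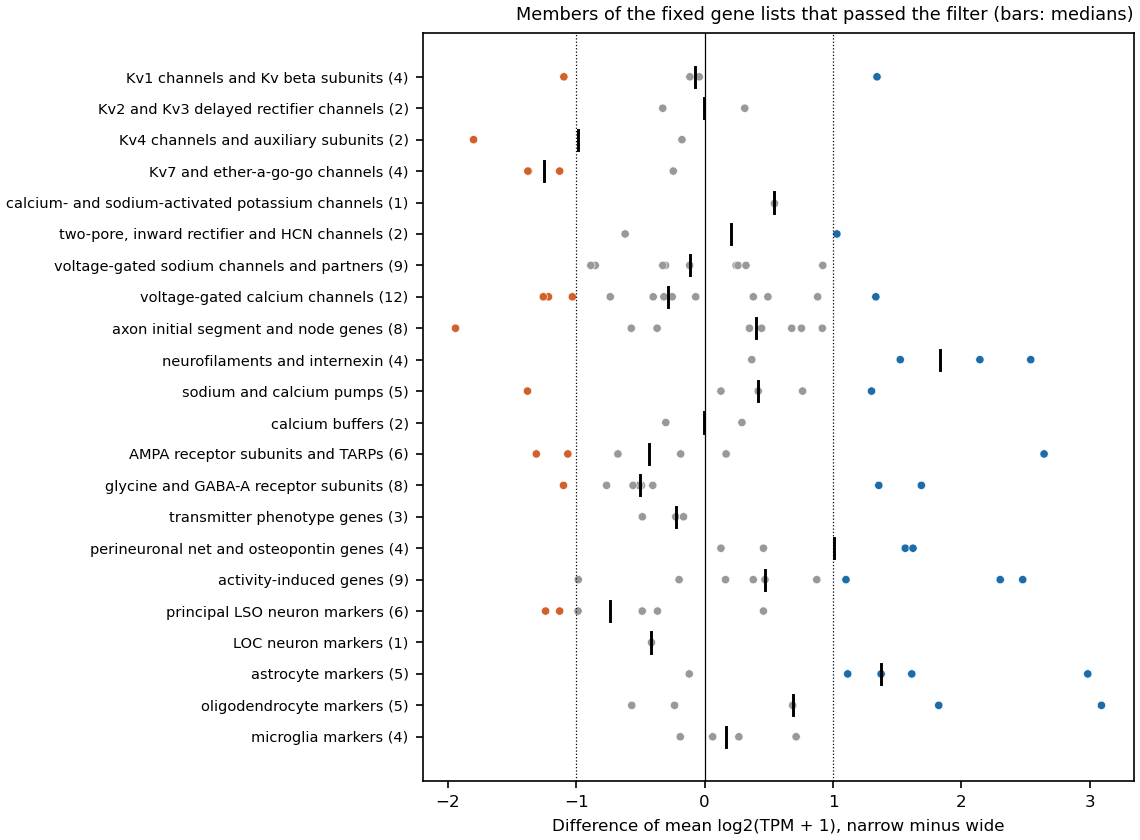
Difference of mean log2(TPM + 1), narrow minus wide, for each member of the gene lists that passed the filter, with the number of members in parentheses and a black bar at the list median. Blue points are 2-fold or more higher in narrow and orange points in wide neurons. The neurofilament list has 3 of 4 members beyond 1 and a median of 1.83, and the sodium channel list has none beyond 1 in either direction.

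Channels that set spike width were mostly too sparse to compare between the classes. Of the Kv3 genes, which code for fast delayed rectifiers, Kcnc1 was detected in 3 of 15 narrow and 4 of 12 wide neurons, with highest values of 13 and 15 TPM and a difference of -0.33, which was 0.11 with limits of 0.29 and 0.55 ms. Of the 10 Kv2 and Kv3 genes, 2 passed the filter and 0 differed 2-fold in either direction. A difference between the classes was not detectable at this detection rate.

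Sodium channel genes, which carry the rising phase, were likewise alike within their spread. Of 12 genes for sodium channels and their FGF partners, 9 passed the filter, and 0 of them differed 2-fold in either direction. Scn1a, the most often detected of them, had 0 to 65 TPM (median 12) in narrow and 0 to 71 TPM (median 22) in wide neurons and was detected in 13 of 15 and 11 of 12. Scn8a, the channel of the axon initial segment, was detected in 9 of 15 narrow and 5 of 12 wide neurons with a difference of 0.92. For Scn1a the classes thus covered nearly the same range, whereas the highest values of Scn8a were 725 TPM in narrow and 131 TPM in wide neurons.

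Kcna1, which codes for the Kv1.1 subunit that limits repetitive firing, was higher in narrow neurons. It had 0 to 77 TPM (median 11) in narrow, 0 to 46 TPM (median 6) in intermediate and 0 to 49 TPM (median 0.5) in wide neurons. It was detected in 12 of 15 narrow neurons (80%, 95% interval 51.9 to 95.7%) and in 6 of 12 wide neurons (50%, 21.1 to 78.9%). The classes overlapped, with mean log2(TPM + 1) of 3.17 ± 2.21 and 1.83 ± 2.33 and the narrow neuron higher in 66.4% of pairs. Among neurons with title numbers outside 18 to 28 the sign was the opposite, at -0.74. Of the 8 Kv1 and Kv beta genes, 4 passed the filter, with a list median of -0.08. Of these, 1 was 2-fold higher in narrow and 1, Kcnab3, in wide neurons, against 13.9% and 16.3% of all genes. Kcnab3 stood at -1.10, and at 0.53 with stricter halfwidth limits of 0.29 and 0.55 ms.

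Genes of subthreshold and slowly activating potassium currents tended to be higher in wide neurons. Of the 9 Kv7 and ether-a-go-go genes, 4 passed the filter, with a list median of -1.25. Of these, 3 were 2-fold higher in wide and 0 in narrow neurons, against 16.3% and 13.9% of all genes. A list of 4 genes gives only a coarse share. Kcnh7, an ERG-type channel gene that is also a marker of principal LSO neurons, had 0 to 42 TPM (median 12) in narrow and 0 to 52 TPM (median 17.5) in wide neurons and a difference of -1.13. Kcnh8 was detected in 2 of 15 narrow and 5 of 12 wide neurons. The difference of Kcnh7 turned to 0.43 among neurons with title numbers outside 18 to 28, and that of Kcnh8 was -1.99 there.

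Kcnip1, which codes for a cytoplasmic partner of A-type Kv4 channels, was lower in narrow neurons than in both other classes. It had 0 to 22 TPM (median 0) in narrow, 0 to 66 TPM (median 14) in intermediate and 0 to 50 TPM (median 7) in wide neurons, and was detected in 5 of 15, 10 of 14 and 9 of 12. The difference narrow minus wide was -1.80, with means of 1.09 ± 1.79 and 2.89 ± 2.14, and the wide neuron was higher in 73.3% of pairs. The difference was -1.65 outside the title numbers 18 to 28 and -2.25 without the neurons rich in glial markers. It was smaller in other settings, at -1.02 with input resistances of 25 to 75 MOhm, -1.09 divided at the median halfwidth and -0.68 with a pseudocount of 10. Sustained neurons were also low in Kcnip1, with a median of 0 TPM and detection in 3 of 11. None of the 3 Kv4 pore genes listed (Kcnd1, Kcnd2 and Kcnd3) passed the filter, and Dpp6, another Kv4 partner, differed by -0.18.

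The counts of calcium channel genes past 2-fold were small and near the share of all genes. Of 18 genes 12 passed the filter, 1 was 2-fold higher in narrow neurons (Cacng5) and 3 in wide neurons (Cacna1a, Cacnb2 and Cacna2d2). The study describes the product of Cacng5 also as a regulatory protein of AMPA receptors, although the gene is not in the AMPA receptor list below. Cacng5 had 0 to 55 TPM (median 5) in narrow and 0 to 29 TPM (median 0) in wide neurons and was detected in 11 of 15 and 5 of 12. Cacna1a, the pore of P/Q-type channels, had a difference of -1.22 that turned to 0.63 outside the title numbers 18 to 28.

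**Figure D3:**
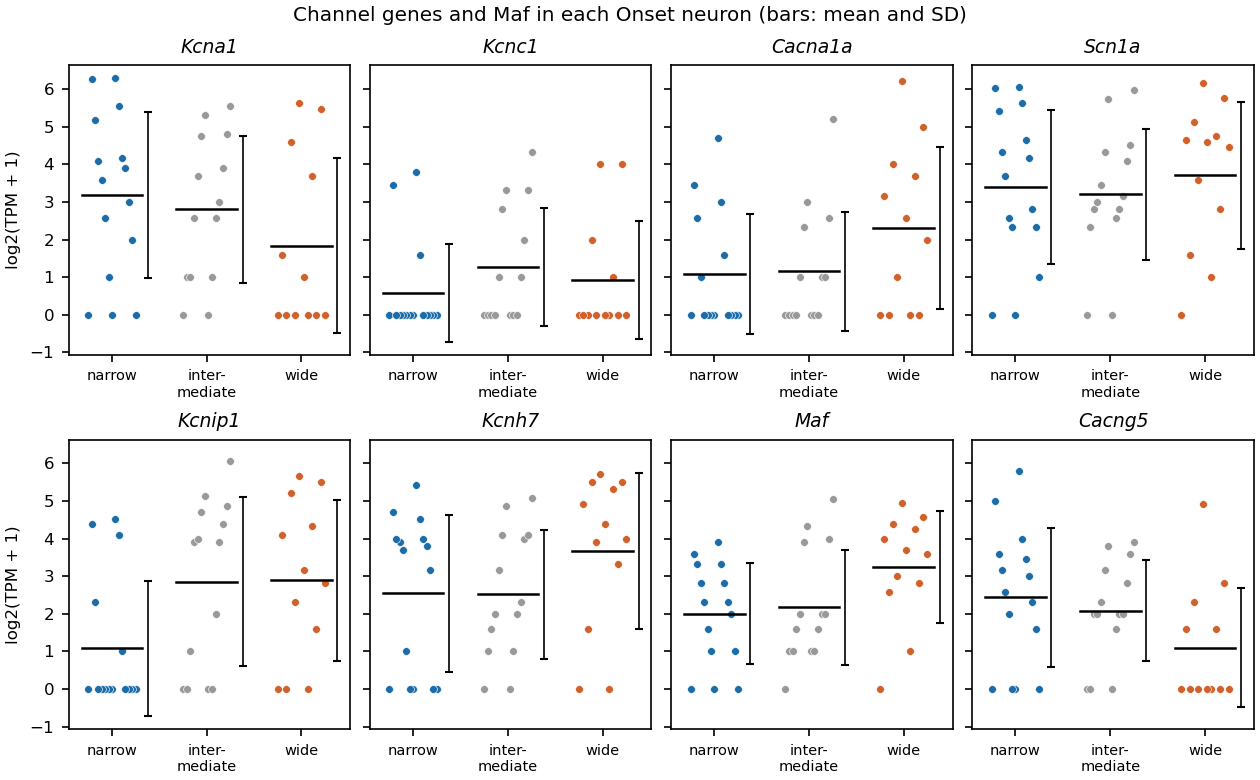
Log2(TPM + 1) of 7 genes of channels or their partners and of Maf in each narrow (n = 15), intermediate (n = 14) and wide (n = 12) Onset neuron. There is 1 point per neuron, a black line at the mean and a bar of 1 SD on either side. Values at 0 are neurons in which the gene was not detected. Kcnip1 was detected in 5 of 15 narrow and 9 of 12 wide neurons, while Kcnc1 lies at 0 in 12 of 15 narrow and 8 of 12 wide neurons.

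Neurofilament genes, which code for the main structural proteins of thick, fast axons, were higher in narrow neurons as a list. Of 4 genes, 3 were 2-fold higher in narrow neurons and 0 in wide neurons, against 13.9% and 16.3% of all genes, and the list median was 1.83. Divided at the median halfwidth, Nefh was at 0.64 and Ina at 0.70, so only Nefl stayed past 2-fold, and Ina was at 0.71 with limits of 0.29 and 0.55 ms. Nefl (chromosome 14, 68083863 to 68089095 on GRCm38), the light chain, had 33 to 3071 TPM (median 810) in narrow, a median of 421.5 TPM in intermediate and 0 to 1290 TPM (median 268.5) in wide neurons. Nefh, the heavy chain, had 97 to 2028 TPM (median 748) in narrow, a median of 298.5 TPM in intermediate and 0 to 1523 TPM (median 339) in wide neurons. All narrow neurons thus held both genes at 33 TPM or more, and in the wide class each gene was at 0 in 1 of 12 neurons.

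The differences of Nefl and Nefh were 2.54 and 2.14, with the narrow neuron higher in 70.6% and 70% of pairs. Ina, alpha-internexin, followed with 1.52 and detection in 12 of 15 narrow, 6 of 14 intermediate and 8 of 12 wide neurons. For Nefh by its median and for Ina by its detection, the intermediate class thus lay below the wide class. Nefm, the medium chain, was the exception: it had medians of 1312 and 1212.5 TPM, a difference of 0.37 and the narrow neuron higher in 50% of pairs, and it was at -0.90 outside the title numbers 18 to 28. In the annotation, exons of Nefl and Nefm overlap, so reads in the shared stretch cannot be told apart.

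Some glial markers were higher in the same class as the neurofilament genes. Of 5 astrocyte markers that passed the filter 4 were 2-fold higher in narrow neurons, and of 5 oligodendrocyte markers 2 were, while 0 of either list were in wide neurons. Over all genes the shares were 13.9% and 16.3%, and lists of 5 genes give only coarse shares. Slc1a2, Mbp and Mobp differed by -0.12, -0.23 and -0.57. Cnp, an enzyme of oligodendrocyte myelin, had 0 to 11769 TPM (median 291) in narrow and 0 to 3637 TPM (median 9) in wide neurons and was detected in 12 of 15 and 8 of 12. Aldoc, an aldolase of astrocytes, had medians of 853 and 4.5 TPM and a difference of 2.98 that was -0.13 when only wide neurons with AP amplitudes of 90 mV or more were kept. Without the neurons rich in glial markers, 7 narrow and 8 wide neurons remained, the neurofilament median was 1.02 and the differences of Nefl, Nefh and Ina were 1.43, 1.02 and 1.02. The negative controls, which hold material from the surface of the slice, summed to 0 to 15979 TPM over the 4 genes with a median of 2837 TPM, against medians of 2822 TPM in narrow and 1756.5 TPM in wide neurons. Outside the title numbers 18 to 28 the list median was 2.23.

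**Figure D4:**
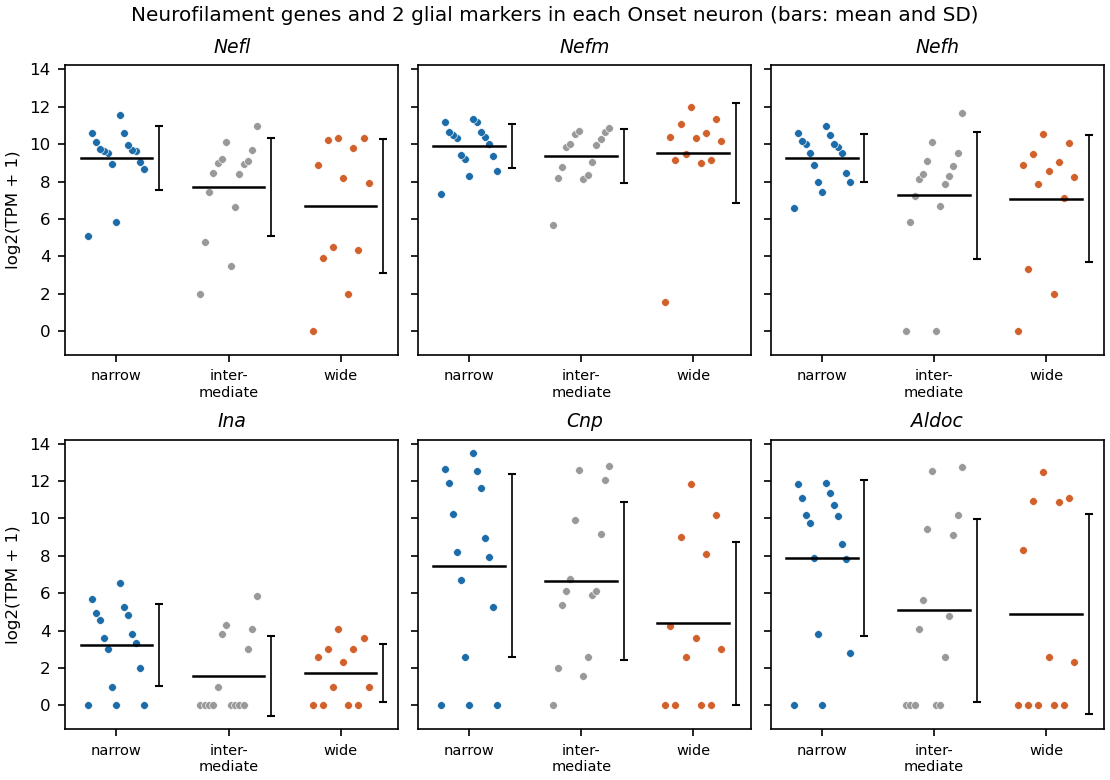
Log2(TPM + 1) of the 4 neurofilament genes and of the glial markers Cnp and Aldoc in each narrow, intermediate and wide Onset neuron, with 1 point per neuron, a black line at the mean and a bar of 1 SD on either side. Narrow neurons lie at 33 TPM or more for Nefl and 97 TPM or more for Nefh, while both genes reach 0 in the wide class, and Nefm has similar means in both.

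Few other genes of the axon and of ion transport were 2-fold different. Of 9 genes of the axon initial segment and node, 8 passed the filter and 1 was 2-fold higher in wide neurons, the adhesion molecule Nrcam at -1.94. Of 10 sodium and calcium pumps, 5 passed, with the plasma membrane calcium pumps Atp2b1 at 1.30 and Atp2b2 at -1.38 in opposite directions. Over all genes, 13.9% were 2-fold higher in narrow and 16.3% in wide neurons. The calcium buffer Pvalb (parvalbumin) was detected in all 27 neurons, with 652 to 12791 TPM (median 4734) in narrow and 1978 to 10779 TPM (median 4703.5) in wide neurons.

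Receptor genes for the inhibitory currents did not follow the sIPSC amplitude as a group. Of 14 glycine and GABA-A receptor genes, including the scaffold gephyrin, 8 passed the filter, with a list median of -0.50. Of these, 2 were 2-fold higher in narrow neurons and 1 in wide neurons, against 13.9% and 16.3% of all genes. Glra1, the glycine receptor subunit of mature synapses, was detected in 9 of 15 narrow and 6 of 12 wide neurons, with medians of 62 and 76 TPM, although its highest values were 6056 and 462 TPM. Its difference of 1.69 turned to -0.46 when all 41 Onset neurons were divided at their median halfwidth of 0.36 ms. Glrb, the beta subunit of the receptor, differed by -0.40 and Gphn by -0.49.

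AMPA receptor genes past 2-fold were few and lay in both directions. Gria1 was higher in narrow neurons by 2.64, with detection in 8 of 15 narrow neurons (53.3%, 26.6 to 78.7%) and 2 of 12 wide neurons (16.7%, 2.09 to 48.4%). Gria2, the subunit that makes the receptors impermeable to calcium, was detected in 10 of 15 narrow and all 12 wide neurons and was lower in narrow neurons by a difference of -1.07. Gria4, a subunit of fast receptors, had medians of 84 and 91.5 TPM. Of the 8 AMPA receptor genes and partners, 6 passed the filter. Of these, 1 was 2-fold higher in narrow and 2 in wide neurons, against 13.9% and 16.3% of all genes.

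Genes of the transmitter phenotype gave no 2-fold difference among the 3 of 9 that passed the filter. Slc17a6, the vesicular glutamate transporter vGLUT2, was detected in 11 of 15 narrow and 9 of 12 wide neurons, with medians of 14 and 41 TPM and a difference of -0.23, which was 1.13 with limits of 0.29 and 0.55 ms. Slc6a5, the glycine transporter of inhibitory neurons, was detected in 1 narrow neuron and in 0 of 12 wide neurons (exact interval up to 26.5%). Slc32a1, the vesicular transporter of GABA and glycine, was at 0 in all 27 neurons.

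Genes of the perineuronal net and of recent activity gave differences that rested on part of the neurons. Bcan and Hapln1, which code for a proteoglycan and a link protein of the net, were higher in narrow neurons by 1.56 and 1.62, but without the neurons rich in glial markers the values were -0.75 and -0.33. Spp1 (osteopontin), an abundant transcript of principal neurons, was detected in 15 of 15 narrow and 10 of 12 wide neurons with a difference of 0.46, which was -1.56 outside the title numbers 18 to 28. Of 10 activity-induced genes, 9 passed the filter and 3 were 2-fold higher in narrow neurons (Fos, Fosb and Nr4a1), against 0 in wide neurons. Over all genes these shares were 13.9% and 16.3%. Of the 9 differences, 7 were above 0 and 2 below. Nr4a1, an immediate-early nuclear receptor, was detected in 7 of 15 narrow and 3 of 12 wide neurons, and Fos, whose median was 724 TPM in narrow and 427.5 TPM in wide neurons, turned to -0.92 outside the title numbers 18 to 28. Fosb turned to -0.29 with the stricter limits of 0.29 and 0.55 ms.

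Maf, a transcription factor gene and marker of principal LSO neurons, was higher in wide neurons. It had 0 to 14 TPM (median 4) in narrow, 0 to 32 TPM (median 2.5) in intermediate and 0 to 30 TPM (median 11.5) in wide neurons. The wide neuron was higher in 76.7% of pairs, and the difference of -1.24 was -2.12 outside the title numbers 18 to 28 and -2.02 without the neurons rich in glial markers. It was under 2-fold in other settings, at -0.77 divided at the median halfwidth, -0.97 with 1900 to 3600 detected genes and -0.55 with a pseudocount of 10. Over the 6 markers of principal neurons, 0 were 2-fold higher in narrow and 2 in wide neurons, with a list median of -0.74. The shares of all genes were 13.9% and 16.3%, and a list of 6 genes gives only a coarse share.

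The genes that best ordered the neurons were then taken from all 2797 genes detected in at least 9 of the 27 neurons, 12 from either end of the share of pairs. Because they were taken for that share in these neurons, their values are a description. The 12 leading in narrow neurons were higher there in 76.1 to 80.6% of pairs, and the 12 leading in wide neurons were higher there in 79.4 to 87.2% of pairs. The mean of the intermediate neurons lay between those of the other classes for 10 of the first 12 and 11 of the second 12. The genes were taken for the gap between those classes, where a further group easily falls. This position therefore cannot show a graded relation to halfwidth. Spearman's rho with halfwidth over the 41 Onset neurons was -0.53 to -0.30 and 0.34 to 0.57, with the chosen neurons included.

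**Figure D5:**
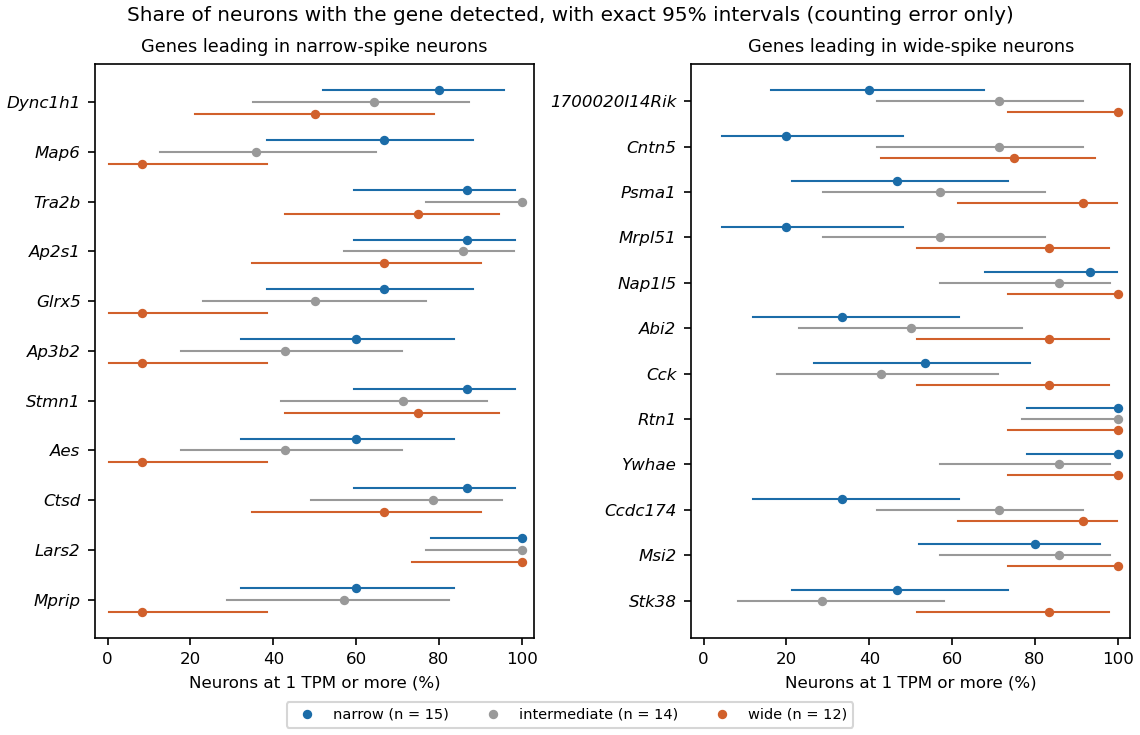
Share of narrow (n = 15), intermediate (n = 14) and wide (n = 12) Onset neurons at 1 TPM or more, in percent, for 11 of the 12 genes leading in narrow and the 12 leading in wide neurons; lines are exact 95% intervals that cover counting error only. For Map6, Glrx5, Ap3b2, Aes and Mprip the wide share is 8.33%, and for 1700020I14Rik the shares are 40% in narrow and 100% in wide neurons.

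The gene that ordered the neurons best in favour of the narrow class was Dync1h1. It (chromosome 12, 110601452 to 110666945) codes for the heavy chain of the dynein motor and had 0 to 1423 TPM (median 241) in narrow, a median of 9 TPM in intermediate and 0 to 245 TPM (median 0.5) in wide neurons. Map6 (chromosome 7, 99267447 to 99337137), which stabilises microtubules, was detected in 10 of 15 narrow neurons (66.7%, 38.4 to 88.2%) and 1 of 12 wide neurons (8.33%, 0.211 to 38.5%). Stmn1, a tubulin-binding protein, had medians of 55, 19.5 and 12.5 TPM in narrow, intermediate and wide neurons. For the 3 genes the intermediate class lay between the classes that they were taken to separate.

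Ap2s1 and Ap3b2, subunits of the adaptor complexes of endocytosis and of synaptic vesicle formation, were also in this group. Ap2s1 had 0 to 6278 TPM (median 1522) in narrow and 0 to 2671 TPM (median 10.5) in wide neurons. Ctsd, the lysosomal protease cathepsin D, had 0 to 10815 TPM (median 2206) and 0 to 2349 TPM (median 10), but its medians were 2610 TPM in Sustained and 2388 TPM in LOC neurons, and 138 TPM in intermediate neurons. Lars2, a mitochondrial leucyl-tRNA synthetase, was detected in all neurons of both classes and in all 8 negative controls. Its median was 78 TPM in narrow neurons, 31.5 TPM in wide neurons and 348 TPM in the controls. Further members were Tra2b, a splicing factor, Glrx5, a mitochondrial glutaredoxin of iron-sulfur cluster assembly, Aes, a corepressor, and Mprip, which binds myosin phosphatase. Of these, Tra2b was reversed to -0.53 without the neurons rich in glial markers.

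In wide neurons the leading gene was 1700020I14Rik (chromosome 2, 119594297 to 119607502), a long noncoding RNA gene, with 0 to 10 TPM (median 0) in narrow, 0 to 18 TPM (median 1.5) in intermediate and 2 to 13 TPM (median 6.5) in wide neurons. It was detected in 6 of 15 narrow neurons (40%, 16.3 to 67.7%) and all 12 wide neurons (100%, 73.5 to 100%). The wide neuron was higher in 87.2% of pairs. A pseudocount of 10 left a difference of -0.51 in place of -1.87.

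Cntn5 (chromosome 9, 9660891 to 10904775), an adhesion molecule of the contactin family, was detected in 3 of 15 narrow, 10 of 14 intermediate and 9 of 12 wide neurons. Cck (chromosome 9, 121489824 to 121495694), the neuropeptide cholecystokinin, had 0 to 28 TPM (median 8) in narrow, a median of 0 TPM in intermediate and 0 to 57 TPM (median 25.5) in wide neurons. It was detected in 0 of 30 LOC neurons (exact interval up to 11.6%) and in 4 of 11 Sustained neurons. By their median the intermediate neurons therefore did not lie between the classes for Cck.

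Psma1, a subunit of the proteasome core, had 0 to 101 TPM (median 0) in narrow, a median of 18 TPM in intermediate and 0 to 121 TPM (median 41) in wide neurons, and was detected in 7 of 15, 8 of 14 and 11 of 12. Mrpl51, a protein of the mitochondrial ribosome, was detected in 3 of 15, 8 of 14 and 10 of 12. For both, detection in the intermediate class lay between that in the classes that they were taken to separate.

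Rtn1 and Ywhae, a reticulon of the endoplasmic reticulum and a 14-3-3 protein, were detected in all 27 neurons, so their values differ in level rather than in detection. Rtn1 had 3 to 2349 TPM (median 370) in narrow and 266 to 2667 TPM (median 1023) in wide neurons, and Ywhae 57 to 1077 TPM (median 397) and 76 to 1610 TPM (median 861.5). Divided at the median halfwidth, Ywhae turned to 0.19. Abi2, Ccdc174, Stk38, Msi2 and Nap1l5 completed the group, with medians in wide neurons of 29.5, 8.5, 57.5, 16 and 53 TPM against 0, 0, 0, 4 and 18 TPM in narrow neurons.

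The leading differences were close to the same without the library whose name is in doubt. Without cell_35, 604 genes were 2-fold higher in narrow and 753 in wide neurons, and 536 and 663 of these were among the 621 and 726 genes found with it. Dync1h1, 1700020I14Rik and Psma1 then had differences of 4.07, -1.80 and -3.08 in place of 4.29, -1.87 and -3.19. Stricter halfwidth limits of 0.29 and 0.55 ms kept 9 narrow and 8 wide neurons, and 395 of 763 and 537 of 1035 genes past 2-fold were shared with the wider limits, that is 63.6% and 74% of the genes found there.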

How the data were processed

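Single LSO neurons of mouse brainstem slices were recorded and their cytoplasm harvested by the authors. Reads were trimmed (Trim Galore 0.4.2), aligned to mm10 with STAR, checked for duplicates (Picard 1.115) and summarised with featureCounts, as the study's methods and processing notes state. The score values of the deposited table are TPM that the authors made from gene length and depth and rounded to whole numbers; read depth is unknown, and 15 and 12 neurons limit the precision of shares. Overlapping and antisense genes cannot be told apart, since strand use is not given in the sources used here. Electrophysiological labels were used as deposited.

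Names and positions came from Gencode vM21 (GRCm38), matching 37570 of 38887 identifiers. Genes at 1 TPM or more in at least 20% of the 27 neurons were compared by the difference of mean log2(TPM + 1), narrow minus wide, and by the share of the 180 narrow-wide pairs with the narrow neuron higher, a tie counting 50% (SciPy 1.17.1 and pandas 2.3.3 under Python 3.11.15, with figures from matplotlib 3.10.9); the calculation was tested on simulated data. Named genes are members of 23 lists that passed this filter, some that did not pass and are given by detection only, and the 12 genes at either end of the pair share. Members and lists were chosen with earlier results of these data known. Sustained neuron cell_54, which the study's table places with LOC neurons, was not used, and LOC neurons were taken as labelled. Results of some members of the lists and of 1 of the 12 genes leading in narrow neurons are not reported here.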

Additional observations from a re-analysis of the deposited data

How the results depend on the processing

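Since no test was made, stability is given as values. The numbers of genes 2-fold higher in narrow and in wide neurons were 230 and 278 with a pseudocount of 10 and 201 and 276 with detection required in 50% of the neurons, which left 1324 genes. The numbers higher in narrow and in wide neurons were 399 and 530 with all 41 Onset neurons divided at the median halfwidth, 1000 and 760 with only the 6 wide neurons of AP amplitude of 90 mV or more, 1143 and 1011 with title numbers outside 18 to 28, and 776 and 1401 without the neurons of 2000 TPM or more of glial markers. Leaving out title numbers 18 to 28 moved the narrow minus wide difference to -0.0865 ms for the membrane time constant, 2.10 mV for the sag, 0.02 ms for sEPSC rise time, 0.0825 ms for sEPSC decay, -2.13 pA for sEPSC amplitude and 0.00402 nF for capacitance. For AP threshold that difference was then -8.47 mV, in place of -1.18 mV. With only wide neurons of 90 mV or more, the AP amplitude difference was 1.56 mV by construction.

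Differences of 1 or more on the log2 scale turned sign as follows. Outside title numbers 18 to 28, Kcna1 was at -0.74, Kcnh7 at 0.43, Cacna1a at 0.63, Hapln1 at -1.17 and Fos at -0.92. Without the neurons rich in glial markers, Tra2b was at -0.53, Bcan at -0.75, Hapln1 at -0.33 and the perineuronal list median at -0.54. Divided at the median halfwidth, Ywhae was at 0.19 and Glra1 at -0.46. Kcnab3 was at 0.53 and Fosb at -0.29 with limits of 0.29 and 0.55 ms, and Gria3 at 2.20 and Aldoc at -0.13 with only wide neurons of 90 mV or more. Among the smaller differences, those of Spp1, Nefm, Slc17a6 and Kcnc1 also took either sign, over ranges of -1.56 to 1.93, -0.90 to 1.34, -0.70 to 1.13 and -1.08 to 0.11. The cause was not tested. The alternatives without cell_35, by glial markers, by title number and by 1900 to 3600 detected genes were chosen after seeing the data. No paired analysis was possible because the numbers of the neurons name no animals and no test was made.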
